A study of Mus musculus with 60 samples.

Results

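Myelin and mature oligodendrocyte genes are described here through 9 of the 21950 genes of the count table, taken by gene name: Mbp, Mog, Mag, Mobp, Cnp, Cldn11, Fa2h, Mal and Ugt8a. RNA was sequenced from the hippocampus, the prefrontal cortex and the striatum of Adgrl3 -/- mice (KO; the labels also write Lphn3 -/-) and of +/+ wild-type mice (WT). Adgrl3 encodes latrophilin-3, an adhesion receptor of neurons. The mice were 65 to 76 days old, and no treatment is named in the labels. The labels speak of 12 mice per genotype, and each genotype and region has 10 libraries, 60 in all. Brains were frozen and the regions were then dissected by hand. Neither sex nor the altered part of the gene is stated in the sources used here. Because nothing states whether equally numbered libraries come from the same mouse, p-values measure the spread between these libraries.

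Oligodendrocytes wrap axons of the central nervous system in myelin, a stack of compacted membrane that is rich in cholesterol and galactolipids. Transcripts of its structural proteins and of the enzymes that make its lipids rise together when precursor cells mature, under the transcription factors SOX10 and MYRF. White matter holds much more myelin than grey matter, and the striatum is crossed by bundles of myelinated fibres. In a tissue homogenate, fewer oligodendrocytes and less RNA per oligodendrocyte cannot be told apart.

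The targeted gene was measured first. In hippocampus Adgrl3 stood at 125 ± 5.37 CPM in WT libraries and 34.9 ± 3.08 CPM in KO libraries, at 149 ± 16.1 and 35.3 ± 8.92 CPM in prefrontal cortex, and at 163 ± 9.505 and 41.8 ± 5.25 CPM in striatum (SD, n = 10 each). CPM is the count of a gene relative to the library's TMM-scaled total. Every KO library lay below every WT library of its region. Library totals ran from 38985577 to 51387833 counts, and a member had between 385 and 201044 counts in a library.

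The labelled tissues were set against their markers. In hippocampus, 5 libraries held over 300 CPM of 9 summed striatal markers: WT replicates 1, 8 and 9, and KO replicates 2 and 6. The other hippocampus libraries held up to 276 CPM and the striatum libraries 5247 to 8378 CPM. The members' KO and WT comparison in hippocampus, their region tests and their mutual correlations are therefore given with and without these 5 libraries. The limit was set after the data were seen, and the other results that use hippocampus include all its libraries. Of the markers of peripheral myelin and Schwann cells, Prx and Pmp2 stayed under 1 CPM in every library. Egr2, Ncmap and Drp2 were detected, and the list of 6 summed to 57.0 to 132 CPM in WT and 61.6 to 137 CPM in KO. The mature oligodendrocyte markers Opalin, Ermn and Aspa were measured in all of them.

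The upstream sequences of the members are shown first, since SOX10 and MYRF are known regulators of the myelin programme. Whether these sequences bear on the members' levels in the libraries was not tested. RefSeq start sites (GRCm38.p6) were matched for 7 of the 9 members. The 250 bases before each start were searched on both strands for ACAAAG, a core bound by SOX factors, and for the related ACAATG. The same bases were searched for CTGGNAC, where N is any base, a pattern looser than the core bound by MYRF. Its matches and its background percentage are those of the looser pattern, and some marked matches may differ from the MYRF core at N. The 3 motifs do not overlap in the stretches below. ACAAAG was present for Mag, Mobp and Cnp, 3 of 7 members, against 16.5% of 32851 mouse promoters of the same length. CTGGNAC was present for Mag, Cnp and Mog, also 3 of 7, against 16.1%. ACAATG was found for 0 of 7 members and in 10.7% of promoters. Counted by promoter, as in the background, ACAAAG and CTGGNAC were each present in 4 of the 9 promoters of these members, and ACAATG in 0. For both motifs found, Mag entered with overlapping promoters that hold the same matches, so its sites are counted more than once. Capitals mark the matches, and each stretch ends before the first base of the counted gene.
Mag (chr7:30914874-30915113, minus strand): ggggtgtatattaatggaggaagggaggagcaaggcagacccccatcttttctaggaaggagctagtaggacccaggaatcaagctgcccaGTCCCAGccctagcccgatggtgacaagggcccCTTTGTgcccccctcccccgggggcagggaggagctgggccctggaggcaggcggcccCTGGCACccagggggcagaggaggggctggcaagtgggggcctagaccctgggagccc
Mobp (chr9:120149492-120149706, plus strand): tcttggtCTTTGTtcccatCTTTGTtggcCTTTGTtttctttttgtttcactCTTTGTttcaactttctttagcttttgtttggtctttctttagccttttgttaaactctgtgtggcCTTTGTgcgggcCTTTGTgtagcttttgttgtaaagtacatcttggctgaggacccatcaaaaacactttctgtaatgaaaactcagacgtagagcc
Cnp (chr11:100574689-100574903, plus strand): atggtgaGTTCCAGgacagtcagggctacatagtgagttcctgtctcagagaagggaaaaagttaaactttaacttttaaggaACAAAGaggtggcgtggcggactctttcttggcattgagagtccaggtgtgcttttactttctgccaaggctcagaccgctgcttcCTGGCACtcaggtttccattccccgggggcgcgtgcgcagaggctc
Mog (chr17:37023399-37023648, minus strand): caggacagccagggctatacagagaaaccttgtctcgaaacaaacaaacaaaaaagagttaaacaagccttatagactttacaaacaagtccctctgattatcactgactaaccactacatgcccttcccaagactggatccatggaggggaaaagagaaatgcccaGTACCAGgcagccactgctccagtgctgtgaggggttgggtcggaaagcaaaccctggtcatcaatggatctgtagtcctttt

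The Mobp stretch holds 6 ACAAAG matches, all read on the minus strand as CTTTGT. A count of at least 6 was found in 1 of the 32851 promoters, which is that of Mobp. That limit equals Mobp's own count, so Mobp had to be among those found. The 250 bases before Cldn11, Mal and Ugt8a hold none of the 3 motifs, and Mag has other annotated starts besides the one shown. A match is a run of letters and not a measured binding site.

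The members lie on 8 chromosomes (GRCm38). Mbp spans chromosome 18 from 82475146 to 82585637, Mobp chromosome 9 from 120149707 to 120181484, Mag chromosome 7 from 30899176 to 30914873, and Mog chromosome 17 from 37010743 to 37023398. Cnp spans chromosome 11 from 100574904 to 100591729 and Cldn11 chromosome 3 from 31149920 to 31164324. Mal spans chromosome 2 from 127633226 to 127656695, Fa2h chromosome 8 from 111345135 to 111393824, and Ugt8a chromosome 3 from 125865271 to 125938619. Reads were counted over whole genes, introns included. No member overlaps another listed gene on its own strand. Cnp overlaps Dnajc7 on the other strand, and the sources used here do not say whether reads were assigned by strand.

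All 9 genes had the same order of regions in WT and in KO: striatum above hippocampus above prefrontal cortex. Together they took 0.562% of the counts in WT striatum, 0.250% in WT hippocampus and 0.112% in WT prefrontal cortex. In WT the striatum stood above prefrontal cortex by a median log2 difference of 2.31, which is 4.95-fold. The 9 genes also shared most of their differences between libraries of the same group.

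Mbp encodes myelin basic protein, which holds the cytoplasmic faces of compact myelin together. Its lowest, median and highest WT libraries were at 2128, 2949 and 4123 CPM in striatum, 1014, 1287 and 1769 CPM in hippocampus, and 488, 640 and 687 CPM in prefrontal cortex. Mobp, which encodes a small basic protein of the same layer, was at 742, 1012 and 1505 CPM in striatum, 312, 405 and 575 CPM in hippocampus, and 128, 169 and 202 CPM in prefrontal cortex. For both genes the order of regions was the same in these lowest, median and highest values. Mobp had the widest span of the 9 between striatum and prefrontal cortex, with a log2 difference of 2.65 ± 0.13 (SE), and Mbp differed by 2.28 ± 0.11.

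Mag and Mog encode adhesion proteins of the immunoglobulin family on the myelin surface, Mag on the inner side that faces the axon and Mog on the outermost layer. Mag was at 190, 258 and 354 CPM in WT striatum, 88.2, 107 and 156 CPM in hippocampus, and 43.3, 54.3 and 60.2 CPM in prefrontal cortex. Mog was at 65.2, 87.9 and 129 CPM in striatum, 33.1, 42.4 and 59.8 CPM in hippocampus, and 14.1, 19.0 and 19.98 CPM in prefrontal cortex. The inner and the outer surface gene thus had nearly the same step from prefrontal cortex to striatum, with log2 differences of 2.31 ± 0.12 for Mag and 2.41 ± 0.12 for Mog.

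Cnp encodes the cyclic nucleotide phosphodiesterase of non-compact myelin, and Cldn11 the claudin of the tight junctions between myelin layers. Cnp was at 362, 482 and 643 CPM in WT striatum, 190, 226 and 305 CPM in hippocampus, and 105, 122 and 133 CPM in prefrontal cortex. Cldn11 was at 129, 164 and 264 CPM in striatum, 56.3, 75.96 and 100.2 CPM in hippocampus, and 32.8, 36.1 and 39.8 CPM in prefrontal cortex. Cnp had the narrowest span of the 9, with a log2 difference of 2.01 ± 0.09 between striatum and prefrontal cortex.

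Mal, Fa2h and Ugt8a belong to the lipid side of myelin. Mal encodes a proteolipid of membrane rafts, Fa2h the enzyme that hydroxylates the fatty acids of myelin galactolipids, and Ugt8a the enzyme that adds galactose to ceramide. Mal was at 321, 405 and 603 CPM in WT striatum, 145, 184 and 254 CPM in hippocampus, and 68.4, 83.1 and 97.8 CPM in prefrontal cortex. Fa2h was at 42.8, 67.2 and 81.9 CPM, at 20.9, 25.6 and 37.9 CPM, and at 8.87, 11.1 and 13.9 CPM in the same order. Ugt8a was at 66.1, 96.0 and 125 CPM, at 33.5, 42.9 and 59.0 CPM, and at 17.6, 19.4 and 23.8 CPM. All 3 genes stood lowest in prefrontal cortex.

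Per kilobase of merged exon, the level in WT striatum was highest for Mbp, with 352 ± 73.2 CPM per kb (SD, n = 10). Mobp with 152 ± 35.5, Mal with 151 ± 30.6 and Cnp with 133 ± 23.7 CPM per kb lay within their spread. Cldn11 followed with 94.96 ± 20.8, Mag with 64.7 ± 13.3 and Mog with 55.3 ± 11.5 CPM per kb, and the last pair lay within its spread. Ugt8a with 21.3 ± 4.19 and Fa2h with 21.2 ± 4.72 CPM per kb, both enzyme genes, were the lowest and lay within their spread. Intron reads are part of these counts, so the scale is only approximate.

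**Figure D1:**
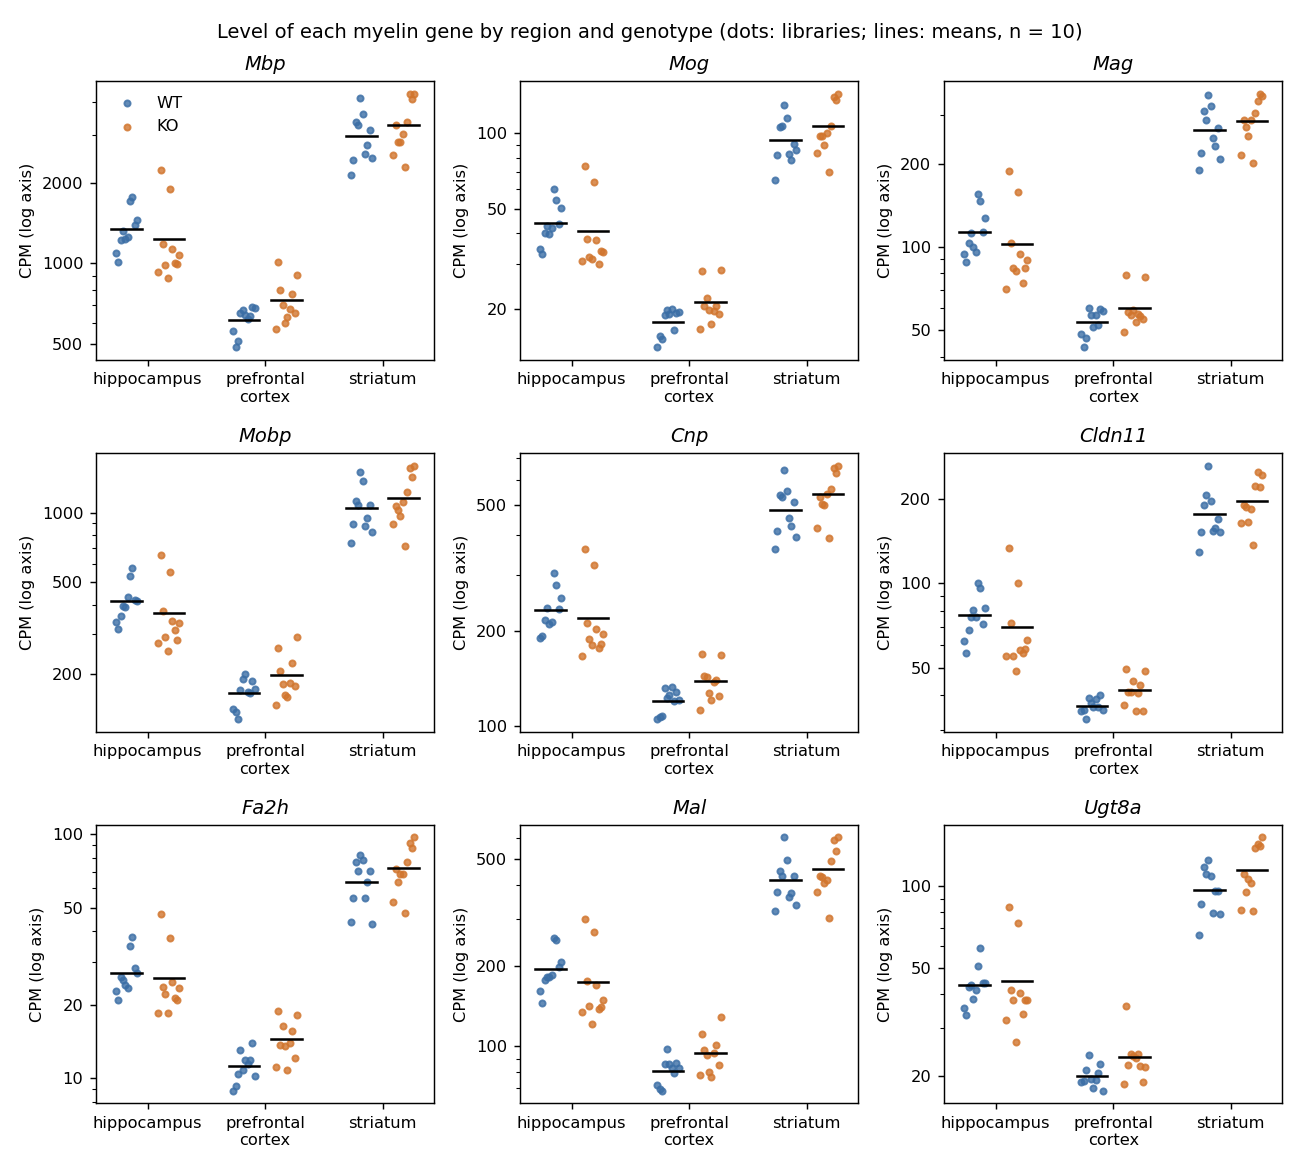
Level of each of the 9 genes in every library (points; CPM on a log axis) by region and genotype, with lines for the group means. For each gene the group means are highest in striatum and lowest in prefrontal cortex, and some KO libraries of different regions overlap. In KO hippocampus 2 libraries stand above the other 8.

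The test of regions was edgeR's quasi-likelihood test within each genotype, with Benjamini-Hochberg adjustment over all genes. In WT, 9 of 9 members were higher in striatum than in prefrontal cortex with a log2 difference of at least 1, where 7.07% of all genes tested were, and adjusted p ran from 2.94e-18 to 3.58e-17. Striatum stood above hippocampus by at least 1 for 9 of 9 (5.12% of all genes), with a median log2 difference of 1.159 and a range of 1.05 for Cnp to 1.33 for Mobp. Hippocampus stood above prefrontal cortex by at least 1 for 8 of 9 (5.98% of all genes), with a median of 1.13. Cnp, at 0.96 ± 0.09, was the member that passed the p-value but not the fold. The medians over all genes in these comparisons, which share libraries, were 0.01, 0.00 and 0.02.

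The KO mice, a second set of animals, gave the same order. Striatum stood above prefrontal cortex by a median of 2.28, between 1.96 for Cnp and 2.54 for Mobp, with 9 of 9 past the fold of 1 (7.64% of all genes). Striatum stood above hippocampus by a median of 1.42, again with 9 of 9 past the fold (5.76%). Hippocampus stood above prefrontal cortex by a median of 0.84, where 9 of 9 passed the p-value (34.8% of all genes; adjusted p up to 1.25e-04) and 0 of 9 reached the fold of 1 (5.68%). Whether a region difference itself differed between the genotypes is the interaction test given below.

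Overlap of the libraries was counted as well. In WT every striatum library lay above every prefrontal cortex library for 9 of 9 members (17.3% of all genes tested), every striatum library above every hippocampus library for 9 of 9 (14.7%), and every hippocampus library above every prefrontal cortex library for 9 of 9 (13.9%). In KO these counts were 9 (15.5%), 7 (12.7%) and 1 of 9 (12.3%). The KO striatum and hippocampus libraries overlapped for Mog and Ugt8a, and Mog was the member whose KO hippocampus and prefrontal cortex libraries did not overlap.

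Without the 5 hippocampus libraries with striatal markers, striatum stood above hippocampus by a median of 1.20 in WT and 1.68 in KO, and hippocampus above prefrontal cortex by 1.098 in WT and 0.58 in KO. All 9 members passed the p-value in each of these comparisons, as did 63.3%, 61.1%, 64.1% and 63.3% of all genes in either direction. With a log2 difference of at least 1 in favour of the first region, 9, 9, 8 and 0 of the 9 passed, against 5.69%, 6.28%, 5.72% and 5.2% of all genes.

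Next, KO was compared with WT in each region. By edgeR no member passed the test in any region, and DESeq2 called 1 member, Fa2h, in prefrontal cortex. The estimates were negative for 8 of 9 members in hippocampus and positive for all 9 in prefrontal cortex and in striatum, 0.36 at most on the log2 scale. Ugt8a was positive in all 3 regions.

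In hippocampus 0 of 9 members passed (edgeR, adjusted p 0.814 to 0.969), and 0.128% of all genes did. DESeq2 and limma voom also called 0 of 9, and 0 of 9 had an unadjusted p under 0.05. The KO libraries of Mbp had a lowest, median and highest level of 886, 1040 and 2227 CPM against 1014, 1287 and 1769 CPM in WT. Mobp was at 250.9, 322 and 656 CPM in KO against 312, 405 and 575 CPM in WT, and Ugt8a at 26.6, 38.1 and 84.0 CPM against 33.5, 42.9 and 59.0 CPM. For every member 8 KO libraries lay below the WT mean, and KO replicates 2 and 6 lay above it. The differences, KO minus WT on the log2 scale, were negative for 8 of 9, from -0.18 ± 0.17 (SE) for Mobp to 0.04 ± 0.18 for Ugt8a. The median of the 9 was -0.13, and that of all genes was 0.00. Single libraries moved these values: the median was -0.27 without KO replicate 2 (range -0.32 to -0.11), -0.21 without KO replicate 6, and between -0.17 (without WT replicate 2) and -0.085 (without WT replicate 8) in the other cases, and 0 of 9 passed in each.

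KO replicates 2 and 6 are also the KO hippocampus libraries with over 300 CPM of striatal markers, at 637 and 423 CPM, and with the most choroid plexus and ependymal marker counts, at 3059.5 and 2649 CPM. Of the WT libraries with striatal markers, replicate 8 (651 CPM) was high in all 9 members, replicate 9 (373 CPM) was near its group mean and replicate 1 (400 CPM) was low. WT replicate 7, which lay below the limit, stood 0.39 above its group mean on the log2 scale, averaged over the 9 genes, beside 0.40 for replicate 8. Without the 5 libraries, 7 WT and 8 KO libraries remained. All 9 differences were then negative, with a median of -0.38 between -0.40 and -0.22. An unadjusted p under 0.05 (edgeR) was reached by 9 of 9, where 5.53% of all genes were lower in KO at that level. The limit, set after the data were seen, had removed KO replicates 2 and 6, the highest KO libraries for every member. The 9 genes had a median pairwise r of 0.888 over the 15 libraries kept, so they are not 9 separate observations. After adjustment 0 of 9 passed (edgeR, adjusted p 0.167 to 0.411), and 0.0963% of all genes did. The part of the adjoining tissue in these values was not tested.

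**Figure D2:**
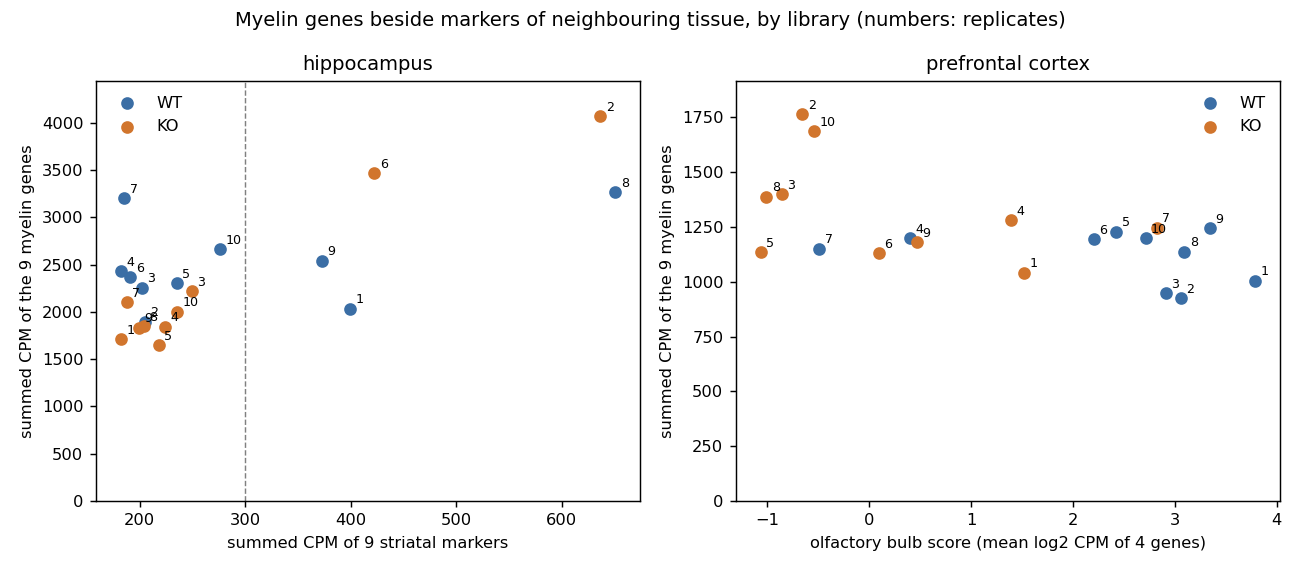
Summed level of the 9 genes (CPM, vertical axis) against the summed CPM of 9 striatal markers in hippocampus (left; dashed line at 300 CPM) and against the olfactory bulb score in prefrontal cortex (right, mean log2 CPM of 4 genes). Each point is a library with its replicate number, and KO hippocampus replicate 2, at 637 CPM of striatal markers, is the highest with 4071 CPM.

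In prefrontal cortex all 9 differences were positive and 0 of 9 passed over all genes (edgeR, adjusted p 0.133 to 0.454), where 0.117% of all genes did. Fa2h had the largest difference. Its KO libraries had a lowest, median and highest level of 10.8, 13.8 and 18.9 CPM against 8.87, 11.1 and 13.9 CPM in WT, and 5 of 10 KO libraries lay above the highest WT library. The log2 difference was 0.36 ± 0.10 (SE; 95% interval 0.16 to 0.56). DESeq2 called it, alone among the 9, with a log2 difference of 0.36 and an adjusted p of 0.0397. That tool called 1.28% of all genes in these libraries. Limma voom called 0 of 9.

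Cldn11, the tight junction gene, was at 35.0, 40.9 and 49.3 CPM in KO against 32.8, 36.1 and 39.8 CPM in WT, and 7 of 10 KO libraries lay above the highest WT library. Its difference was 0.18 ± 0.06. Cnp was at 112, 139 and 169 CPM in KO against 105, 122 and 133 CPM, with 6 of 10 above the highest WT library and a difference of 0.20 ± 0.07. The groups overlapped for both genes in their lower libraries.

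For the compact myelin genes, Mbp was at 571, 690 and 1015 CPM in KO against 488, 640 and 687 CPM in WT (0.24 ± 0.09), and Mobp differed by 0.25 ± 0.11. Mog differed by 0.25 ± 0.09, Ugt8a by 0.22 ± 0.09, Mal by 0.21 ± 0.08 and Mag by 0.16 ± 0.08. Of the 9, all but Mag had an unadjusted p under 0.05, where 6.03% of all genes were higher in KO at that level. The 9 genes had a median pairwise r of 0.827 over the prefrontal cortex libraries, so they are not 9 separate observations. The median of the 9 was 0.22, and 0.18 to 0.25 when each library was left out in turn. Ugt8a differed by 0.13 without KO replicate 2, and 0 of 9 passed in any of these fits. KO replicates 2 and 10 were the highest for most members, and the number of KO libraries above the highest WT library ran from 2 for Mag to 7 for Cldn11.

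The prefrontal cortex libraries also differed in genes of the olfactory bulb, which lies in front of it. A score of 4 such genes (Eomes, Doc2g, Cdhr1, Tbx21; mean log2 CPM) was 2.35 ± 1.35 in WT and 0.22 ± 1.32 in KO (SD, 10 libraries each). The 8 olfactory bulb markers summed to 20.7 to 169 CPM in WT and 17.7 to 89.2 CPM in KO. Within WT the members' mean had r = -0.47 with that score, and within KO -0.39 (10 libraries each). With the score as a covariate, the members' differences had a median of 0.09, between 0.03 for Mag and 0.24 for Fa2h, and 0 of 9 had an unadjusted p under 0.05 (edgeR, adjusted p 0.990 or higher). The score moved with genotype in these libraries.

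In striatum 0 of 9 members passed (edgeR, adjusted p 0.706 to 0.828), where 0.0514% of all genes did. At an unadjusted p under 0.05 there were 0 of 9 as well, and DESeq2 and limma voom called 0. Mbp was at 2286, 3151 and 4283 CPM in KO against 2128, 2949 and 4123 CPM in WT, and Cldn11 at 138, 189 and 250 CPM (KO) against 129, 164 and 264 CPM. Ugt8a, the galactolipid enzyme gene, was at 81.3, 109 and 151 CPM in KO against 66.1, 96.0 and 125 CPM, with 4 of 10 KO libraries above the highest WT library. The ranges overlapped widely for all 9. The differences lay between 0.12 ± 0.12 for Mag and 0.26 ± 0.13 for Ugt8a, with a median of 0.15. That median was 0.11 without KO replicate 8, KO replicate 10 or WT replicate 1, and 0.23 without WT replicate 5, again with 0 of 9 passing. Averaged over the 9 genes, KO replicates 8, 9 and 10 and WT replicate 5 stood highest, and KO replicate 6 and WT replicate 1 lowest.

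When the counts of the 3 regions were summed for each genotype and number, 0 of 9 members passed (edgeR, adjusted p 0.424 to 0.795), where 0.162% of all genes did. DESeq2 and limma voom called 0 of 9. Ugt8a, with 0.22 ± 0.09 and p = 0.0340 before adjustment, was the member with an unadjusted p under 0.05. The median of the 9 was 0.10, and 0.069 (without WT replicate 1) to 0.15 (without WT replicate 5) when single numbers were left out. The estimated KO-minus-WT difference in prefrontal cortex exceeded that in hippocampus by 0.18 ± 0.21 for Ugt8a to 0.44 ± 0.21 for Mobp. The interaction of genotype and region passed for 0 of 9 members (edgeR, adjusted p 0.9998), against 0.0248% of all genes. At an unadjusted p under 0.05 there were 0, and a DESeq2 likelihood ratio test called 0.

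**Figure D3:**
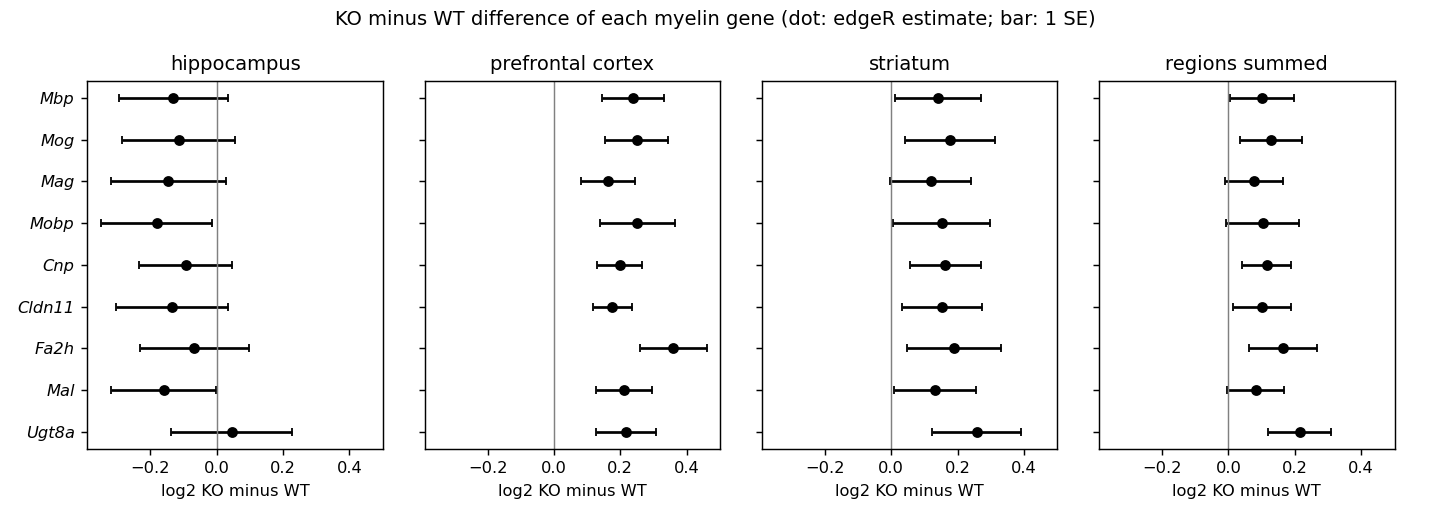
KO-minus-WT difference (log2) of each of the 9 genes in the 3 regions and in the summed counts, with dots for the edgeR estimate and bars for 1 SE. The dots lie left of 0 for 8 genes in hippocampus and right of 0 for all 9 in prefrontal cortex and striatum, and 0 passed the test.

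Variation between libraries of the same group was then compared among the members, as deviations of log2 CPM from the group mean over the 20 libraries of a region. The 9 genes moved together. Over the 36 pairs of genes the median Pearson r was 0.970 in hippocampus, 0.954 in striatum and 0.827 in prefrontal cortex, and the median Spearman rho was 0.941, 0.956 and 0.792. All 36 pairs passed in hippocampus and striatum (permutation within genotype, 100000 resamples, two-sided, adjusted over 108 pairs and regions), at most 1.30e-05 by Pearson, the smallest value the resamples can give. Without the 2 libraries farthest from the median, the median r was 0.931, 0.945 and 0.729 in the same order of regions. The pairs share libraries and depth, and genes are not independent replicates.

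Mbp and Mal were the closest pair in hippocampus, with r = 0.992, and Mobp and Mal in prefrontal cortex, with r = 0.959. Cnp followed the mean of the other 8 most closely, with r = 0.98 averaged over the regions. Ugt8a followed it least, with 0.81, and that low value came from prefrontal cortex, where its r was 0.50 against 0.97 in hippocampus and 0.95 in striatum. In prefrontal cortex 32 of 36 pairs passed by Pearson and 28 by Spearman. The 4 that did not pass by Pearson all hold Ugt8a, paired with Mal (r = 0.29, adjusted permutation p = 0.275), Mobp (0.31), Mog (0.44) and Mbp (0.49). The value for Mbp rests on 2 libraries, since r was -0.04 without the 2 farthest. By Spearman no pair with Ugt8a passed (adjusted permutation p from 0.0532 with Fa2h to 0.968 with Mobp), and every other pair did.

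Per library, all 9 genes lay on one side of their group mean in 37 of 60 libraries: 14 of 20 in hippocampus, 16 in striatum and 7 in prefrontal cortex. KO hippocampus replicate 2 stood 0.92 above its group mean on the log2 scale, averaged over the 9 genes, and replicate 6 stood 0.68 above. In striatum the averages ran from -0.53 in KO replicate 6 to 0.49 in WT replicate 5, and in prefrontal cortex from -0.30 in KO replicate 1 to 0.40 in KO replicate 2. Prefrontal cortex thus had the smallest spread of the members between libraries. Without the 5 hippocampus libraries with striatal markers, the median r in hippocampus was 0.888 over 15 libraries, with a lowest pair of 0.753. Within WT alone the medians were 0.944, 0.725 and 0.943 in hippocampus, prefrontal cortex and striatum, and within KO alone 0.981, 0.871 and 0.969.

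**Figure D4:**
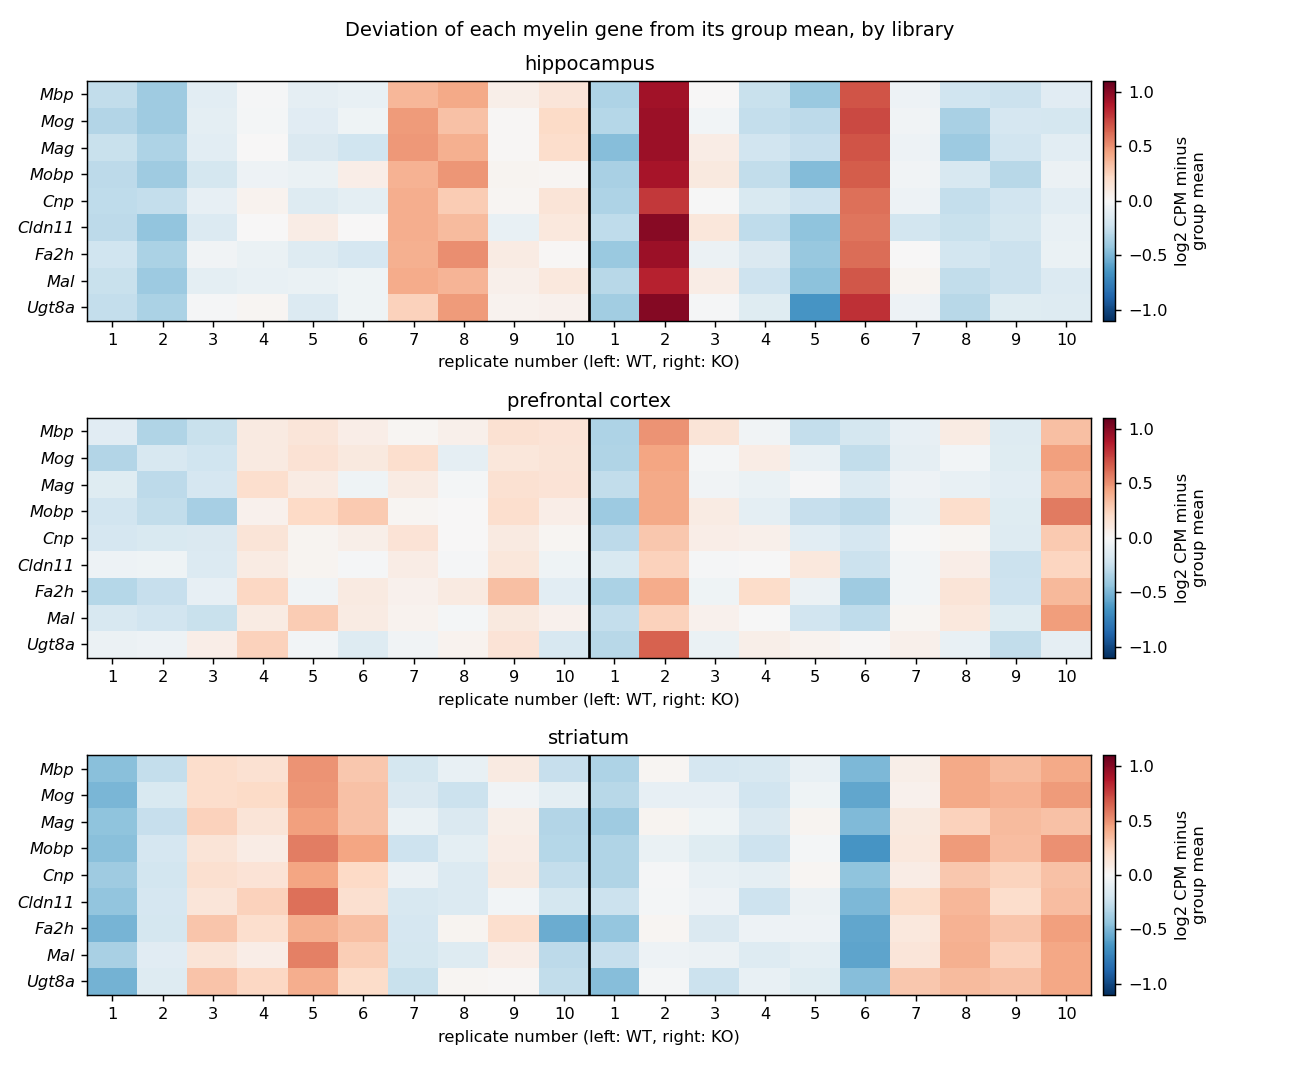
Deviation of each of the 9 genes from its group mean (log2, colour) in every library, by region and genotype. Columns are mostly of a single colour in hippocampus and striatum, which is the co-variation of the 9 genes. In prefrontal cortex all 9 lay on one side of their group mean in 7 of 20 libraries. KO hippocampus replicates 2 and 6 (0.92 and 0.68 on average) are the highest.

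Equally numbered libraries of different regions were compared too. The deviations of a member had a median r of 0.40 between hippocampus and prefrontal cortex, 0.47 between prefrontal cortex and striatum, and -0.23 between hippocampus and striatum (20 pairs of libraries each). The median rho was 0.40, 0.47 and -0.09, and without the 2 farthest pairs the median r was 0.43, 0.45 and -0.0020. None of the 27 correlations passed (permutation test, lowest adjusted p 0.0921 by Pearson and 0.104 by Spearman).

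Which other genes followed the members was measured by r with the mean of the 9, averaged over the regions (20 libraries each). Among the 10 nearest genes were Bcas1 (0.957), Trf (0.953), the transferrin gene that oligodendrocytes express, Gm20425 (0.952), Plekhb1 (0.946), Gltp (0.941), a glycolipid transfer protein gene, Rhog (0.926), Prr18 (0.918), Ermn (0.916) and Gjb1 (0.916), a connexin gene of myelinating glia. Gm20425 overlaps Trf on the same strand and shares its reads. Of the 10, 6 stood on the list of 35 other myelin and mature oligodendrocyte genes, and of the nearest 30, 14 did. An r over 0.9 with the members' mean was reached by 0.589% of all genes in hippocampus, 0.999% in striatum and 0.0682% in prefrontal cortex.

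A total of 6 lists of related genes were set beside the members. The 35 other myelin and mature oligodendrocyte genes had a median r of 0.84 with the members' mean, averaged over regions. The 10 transcription factors of the lineage had 0.51, with Myrf at 0.89 and Sox10 at 0.87. Precursor and newly formed oligodendrocyte genes had 0.17, genes of sphingolipid metabolism 0.14, of cholesterol synthesis and uptake 0.01, and of the paranode, node and large axon -0.01. Omg, whose product neurons also make, stands on the list of other myelin genes and had 0.09.

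The lists were also compared between regions. In WT, 30 of the 35 other myelin genes were higher in striatum than in prefrontal cortex with a log2 difference of at least 1, with a median of 1.96. Examples are Hapln2 (2.76 ± 0.12, SE), which encodes a link protein of nodes, Gpr37 (2.05 ± 0.09) and the connexin gene Gjc3 (2.00 ± 0.08). Of the 10 transcription factors 4 passed with that fold: Nkx6-2 (2.44 ± 0.13), Myrf (2.37 ± 0.11), Sox10 (1.54 ± 0.09) and Tcf7l2 (1.53 ± 0.30). Their median was 0.96.

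Of 13 precursor and newly formed oligodendrocyte genes, Enpp6 alone passed with that fold, at 2.25 ± 0.11; it marks newly forming oligodendrocytes. The median of that list was 0.34. Of 13 sphingolipid genes Cers2 did, at 1.26 ± 0.07; it encodes the ceramide synthase for very long acyl chains, and the median was 0.11. Of 13 paranode, node and axon genes Cntn2 did, at 1.18 ± 0.07; its product sits beside the paranode on axon and glia, and the median was 0.38. Of 18 cholesterol genes 0 did, and the median was -0.15. Hmgcs1 (-0.37 ± 0.04), which encodes an early enzyme of the pathway, was lower in striatum by the p-value, short of the fold. The background for these counts is the 7.07% given for all genes.

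**Figure D5:**
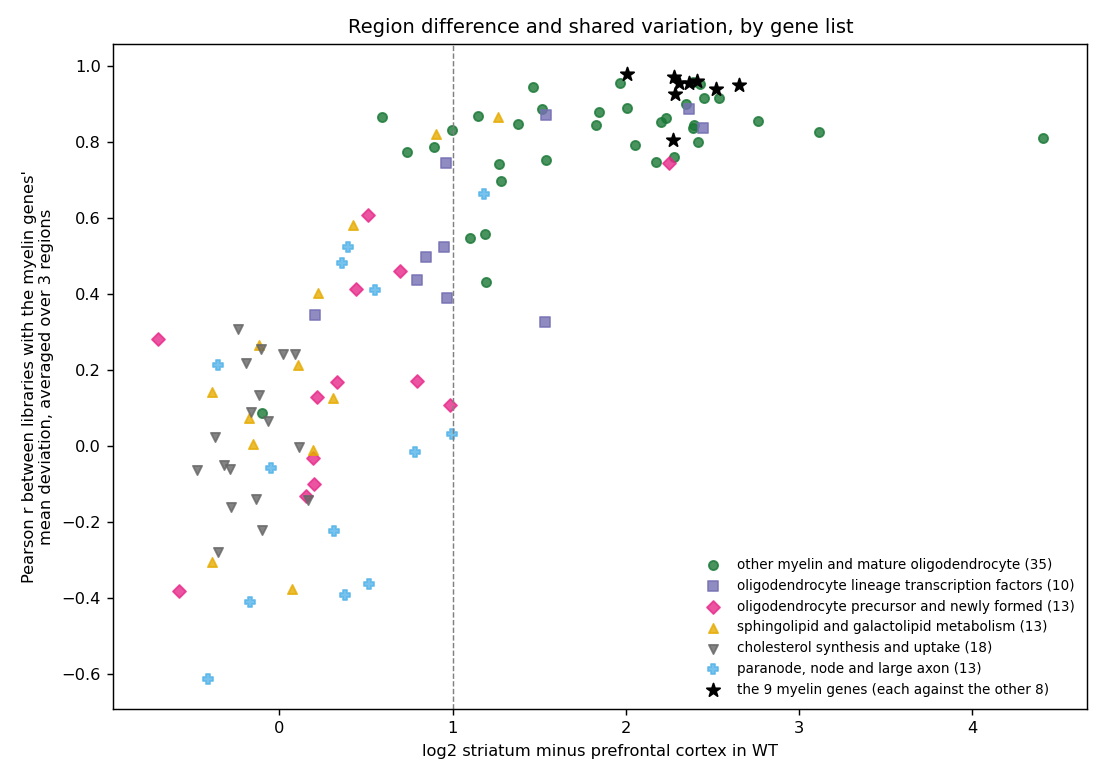
Striatum-minus-prefrontal-cortex difference in WT (log2, horizontal axis) and r with the members' mean, averaged over the 3 regions (vertical axis), for each gene of the lists. Most of the other myelin genes lie at the upper right, with a median difference of 1.96 and a median r of 0.84, and the cholesterol genes lie around medians of -0.15 and 0.01.

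KO against WT, 0 genes of these 6 lists passed in any single region by edgeR. The other myelin genes had medians of -0.11 in hippocampus, 0.10 in prefrontal cortex and 0.09 in striatum, the signs of the members' own medians. At an unadjusted p under 0.05 they numbered 0, 9 and 1 of 35, where 8.14%, 11.8% and 7.14% of all genes were in either direction. Of the 9 in prefrontal cortex 8 were higher in KO and 1 was lower, and the 1 in striatum, Omg, was lower (-0.07). The 35 genes had a median r of 0.69 with the members' mean in prefrontal cortex, so they are not 35 separate observations. DESeq2 called Car2, a carbonic anhydrase gene of oligodendrocytes, in prefrontal cortex (0.18 ± 0.05, adjusted p = 0.0455).

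Gpr17, a receptor gene of precursors that are turning into oligodendrocytes, had nearly the same difference in each region: 0.24 ± 0.06 in hippocampus, 0.24 ± 0.08 in prefrontal cortex and 0.23 ± 0.07 in striatum (edgeR, adjusted p 0.216, 0.186 and 0.461). In the summed counts it was 0.23 ± 0.06 (adjusted p = 0.148). DESeq2 called it in hippocampus (adjusted p = 0.0316) and in the summed counts (adjusted p = 0.0151). The members of its list had medians near 0, from -0.02 to 0.02, over the 3 regions.

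In the summed counts Mvk, the mevalonate kinase gene of cholesterol synthesis, rose by 0.13 ± 0.03 (edgeR, adjusted p = 0.0329) and was the gene of the 6 lists that passed. It lies on chromosome 5 from 114444269 to 114460591, the chromosome of the targeted Adgrl3 (81020138 to 81825133). Sc5d, which encodes a late enzyme of the same pathway, was called by DESeq2 in hippocampus (0.12 ± 0.03, adjusted p = 0.00524) and in the summed counts (0.10 ± 0.02, adjusted p = 0.00190), and not by edgeR.

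Levels of other cell types were compared with the members over the 20 libraries of a region, as a description. The mean log2 deviation of the other mature oligodendrocyte markers had r = 0.98 with the members' mean in hippocampus, 0.84 in prefrontal cortex and 0.98 in striatum. Oligodendrocyte precursor markers had 0.51, 0.20 and 0.48. Astrocyte markers had -0.44 in hippocampus, 0.07 in prefrontal cortex and 0.94 in striatum. Gene by gene in striatum, r was 0.92 for Gfap, 0.88 for S100b, 0.81 for Aqp4, 0.78 for Aldh1l1, 0.74 for Gja1 and 0.70 for Aldoc. It was 0.15 for Fgfr3, and the transporter genes Slc1a2 (-0.61) and Slc1a3 (-0.64) had negative values. The summed astrocyte level in striatum stayed between 3866 and 4637 CPM.

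Choroid plexus and ependymal markers had r of 0.54 with the members in hippocampus and 0.69 in striatum, striatal markers 0.68 in hippocampus, and cortical markers -0.69 in striatum. Schwann cell markers had 0.59 in hippocampus, 0.19 in prefrontal cortex and 0.24 in striatum. Inhibitory neuron markers had 0.58 and excitatory neuron markers -0.48 in striatum. Microglia markers had -0.39 in hippocampus, 0.30 in prefrontal cortex and 0.32 in striatum. Every other list and region lay between -0.39 (olfactory bulb markers in prefrontal cortex) and 0.36 (erythrocyte markers in striatum). In hippocampus the choroid plexus and ependymal markers summed to 61.1 to 2675 CPM in WT and 46.3 to 3059.5 CPM in KO, and in prefrontal cortex they reached up to 61.1 CPM. Their part in the members' variation was not tested.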

How the data were processed

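Read counts per gene in 60 libraries were deposited by the authors as whole numbers in a single table of raw counts. The build was GRCm38 and the tools were STAR 2.5.2b, cutadapt 1.16, FastQC 0.11.4, DESeq2 1.16.1 and bedtools, per the submitters' processing notes, which give no roles. Per the file headers a feature is a whole gene, introns included.

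Counts were tested with edgeR 4.0.16 (quasi-likelihood, TMM, filterByExpr, robust) and limma 3.58.1 in R 4.3.3, and with DESeq2 1.42.0 as an alternative. Benjamini-Hochberg adjustment ran over all genes, at 0.05, and region calls also needed an absolute log2 difference of 1. Each region's KO and WT libraries were fitted alone, regions were fitted within a genotype, and the interaction was fitted on all 60 libraries. The edgeR test of KO against WT was tried on simulated counts with the means and library sizes of hippocampus. Correlations used log2 CPM (prior count 2) with Python 3.11.15, numpy 2.4.6 and scipy 1.17.1.

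The members and lists were chosen with earlier results of these data known. Named genes are the members, Adgrl3, the 10 nearest genes, up to 4 list genes of smallest p that passed and, where none passed, up to 2 as values. Genes that another tool called, and Omg, Myrf and Sox10 in the correlations, were named after their values were seen. Results of some of the genes this rule names are left out here. Fits without hippocampus libraries over 300 CPM of striatal markers were added after the data were seen.

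Equal numbers of different regions correlated over 0.1 within a genotype for 10 of 10 between prefrontal cortex and either other region, but for 8 of 10 between hippocampus and striatum. Between genotypes this held for 2, 3 and 2 of 10 in hippocampus, prefrontal cortex and striatum. Within a genotype, the best correlation with another region was often that of the own number. Between hippocampus and prefrontal cortex this was so for 10 of 10 in WT and 10 in KO. It was so for 10 and 9 between prefrontal cortex and striatum, and for 7 and 6 between hippocampus and striatum.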

Additional observations from a re-analysis of the deposited data

Results flagged for a closer look

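Ugt8a in prefrontal cortex was flagged because a single KO library stood apart: replicate 2 was at 36.1 CPM, and the other KO libraries lay between 18.6 and 24.1 CPM. Its gap to the next library was 0.686 of the group's range, above Dixon's 95% critical value for 10 samples. A total of 54 groups of 10 libraries were examined, and chance flags about 1 in 20 groups.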

How the results depend on the processing

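The 9 members' region calls held in every alternative run, and no member was called KO against WT in any region, in the summed counts or for the interaction, except Fa2h by DESeq2 in prefrontal cortex (1 of 9 members, log2 difference 0.36). Counts over all genes moved more. By DESeq2 they were 44 in hippocampus, 222 in prefrontal cortex, 26 in striatum, 133 in the summed counts and 14 for the interaction, against 20, 18, 8, 27 and 4. A single fit of all 60 libraries gave 208 in prefrontal cortex and 22 in striatum, and with region as a term 649 in place of the summed counts. In prefrontal cortex limma voom gave 55 and the olfactory bulb score as a covariate 6. The cause was not tested. With the replicate number as a block, counts were 5, 10, 3 and 12 in the same order and 0 for the interaction (1106 genes at an unadjusted p under 0.05, 0 of them members), with 0 members called; the block changed no member's call. KO and WT libraries share only a number: their deviations had a median r of -0.17, -0.02 and -0.12 in hippocampus, prefrontal cortex and striatum, and 0, 1 and 0 of 10 correlated best with their own number. Leaving out each library in turn gave 12 to 26 genes in hippocampus, 9 in the lowest and 68 (without KO replicate 7) in the highest case in prefrontal cortex, 5 to 15 (without WT replicate 5) in striatum and 19 to 48 (without KO replicate 5) in the summed counts, and 0 members in each. The Ugt8a difference in hippocampus, 0.04, turned to -0.037 with the replicate block, to -0.041 with limma voom, to -0.22 without the libraries with striatal markers and to -0.062 without KO replicate 6, and leaving out single libraries gave -0.11 (KO replicate 2) to 0.11 (KO replicate 5). The median r of the members in hippocampus, 0.970, was 0.944 in WT alone and 0.888 without the libraries with striatal markers. With 385 counts in the lowest case, counting error is small beside the spread between libraries.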
